A study of Mus musculus with 7 samples.

Results

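The RNAs encoded by the mitochondrial genome were followed in cultured mouse liver slices. They were taken as every row whose gene symbol in the GENCODE annotation of GRCm38 starts with mt-, a rule that uses no measured value. The rule found 37 of the 55487 genes in the count table, namely 13 mRNAs, 2 rRNAs and 22 tRNAs, and all 37 are annotated on chromosome M. All 37 also passed the filter on low counts, which asks for 5.74 CPM (counts scaled to libraries of 1e6 counts) in at least 3 libraries of any group and left 10876 genes to be tested. Of the 37, 34 met it within each group, while mt-Tf, mt-Tk and mt-Tt met it in 3 libraries of the CTR group only, where they were high, so that their single values are given as a description with no test.

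Precision-cut liver slices (PCLS) were made from healthy male BALB/c mice, which the study's methods give as 12 to 30 weeks old. The slices were 250 µm thick with a diameter of 3 mm, and all of them were collected on day 3 of culture in Williams' Medium E. CTR slices had no drug (0 mM, 3 libraries). VPA slices had 2.5 mM valproic acid, an inhibitor of class I histone deacetylases, in the medium from slicing onward (4 libraries). With these libraries the study looked for the mechanisms by which VPA benefits the cultures. The labels carry a slice culture number, which is 72, 74 and 71 for CTR replicates 1 to 3 and 73, 74, 71 and 72 for VPA replicates 1 to 4, but they do not say whether a number stands for a mouse, nor how many slices went into a library. The study's methods count the liver of a different mouse as 1 biological repeat, without tying these libraries to mice one by one. The p-values measure the spread between these libraries.

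Mitochondria keep a small circular genome of their own. It is transcribed on both strands into long precursor RNAs, and the tRNAs that lie between most of the other genes are cut out, which releases the mRNAs and rRNAs on either side. The mRNAs code for core membrane subunits of complexes I, III, IV and V of oxidative phosphorylation, the rRNAs form the mitochondrial ribosome with imported proteins, and the tRNAs serve that ribosome alone. Everything else that copies, transcribes, processes and translates this genome is encoded in the nucleus. Hepatocytes are rich in mitochondria, and VPA is known in the clinic for a liver toxicity that is linked to mitochondrial function. The libraries were made from total RNA with a QuantSeq 3′ mRNA-Seq kit, which primes on runs of A and reads the RNA next to them. A count on a tRNA gene does not tell a mature tRNA from a longer precursor that spans it.

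Shown as sequences are 8 of the tRNA genes described below, so that a reader can see how short they are and what they carry. They are 7 with an unadjusted p under 0.05 and mt-Tq, whose share of the tRNA counts was higher in every VPA library. Of the 7, mt-Tf and mt-Tk met the filter on low counts only in the CTR group and are shown as a description. Each line is the whole gene, 5′ to 3′ on its own strand, from the GENCODE M21 transcripts of GRCm38, and the capitals mark the anticodon, found by a search for the known triplet inside a paired stem. The phenylalanine tRNA mt-Tf is at chrM:1-68, the valine tRNA mt-Tv at chrM:1025-1093, the lysine tRNA mt-Tk at chrM:7700-7764, the arginine tRNA mt-Tr at chrM:9808-9875, a serine tRNA mt-Ts2 at chrM:11613-11671 and a leucine tRNA mt-Tl2 at chrM:11671-11741, all on the + strand. The glutamine tRNA mt-Tq at chrM:3772-3842 and the cysteine tRNA mt-Tc at chrM:5192-5257 are on the − strand.
mt-Tf: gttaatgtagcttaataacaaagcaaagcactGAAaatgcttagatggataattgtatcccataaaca
mt-Tv: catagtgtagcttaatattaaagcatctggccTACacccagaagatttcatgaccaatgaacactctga
mt-Tk: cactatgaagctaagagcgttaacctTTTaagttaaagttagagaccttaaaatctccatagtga
mt-Tr: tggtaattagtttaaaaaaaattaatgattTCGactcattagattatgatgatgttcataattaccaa
mt-Ts2: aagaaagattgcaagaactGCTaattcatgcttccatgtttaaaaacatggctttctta
mt-Tl2: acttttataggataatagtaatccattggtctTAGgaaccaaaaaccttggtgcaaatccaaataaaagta
mt-Tc: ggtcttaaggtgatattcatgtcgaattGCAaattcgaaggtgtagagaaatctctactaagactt
mt-Tq: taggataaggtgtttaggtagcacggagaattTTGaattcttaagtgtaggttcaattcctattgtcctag

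The only mRNA on the − strand is mt-Nd6, and its 3′ end lies over the 3′ end of mt-Nd5 on the other strand. The last 60 bases of both genes are given because the 14 bases in capitals belong to both: mt-Nd5 is read from chrM:13506-13565 on the + strand and mt-Nd6 from chrM:13552-13611 on the − strand. The setting of strand in the counting is not given in the sources used here, so reads in these bases could stand at either gene. If strand was not used, reads of + strand RNA that runs on past mt-Nd5 would stand at mt-Nd6 as well.
mt-Nd5: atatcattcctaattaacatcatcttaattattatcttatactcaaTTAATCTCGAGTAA
mt-Nd6: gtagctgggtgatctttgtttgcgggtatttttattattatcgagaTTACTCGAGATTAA

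The libraries held 1743675 to 4773750 counts on genes in the CTR group and 1400887 to 3102450 in the VPA group. The number of genes with a count was 17744 to 19756 for CTR and 14359 to 16761 for VPA, with no overlap. Hepatocyte markers took 0.949 to 2.29% of the counts in the CTR libraries and 0.540 to 1.66% in the VPA libraries, and of these 10 genes 1, Cps1, was at 0 in CTR replicate 2 and VPA replicate 2. Endothelial markers (8 genes, 4 of them at 0 in at least 1 library) took 0.0378 to 0.0392% in the CTR libraries and 0.0124 to 0.0358% in the VPA libraries. Stellate cell markers took 0.195 to 0.379% against 0.137 to 0.267%, macrophage markers 0.0228 to 0.0360% against 0.0184 to 0.0427%, and cholangiocyte markers 0.0289 to 0.0642% against 0.0244 to 0.0659%, all with overlap. At least 1 library was at 0 for 2 of the 10 stellate cell, 6 of the 8 macrophage and 4 of the 6 cholangiocyte markers. Of the macrophage markers, Adgre1 and Marco were at 0 in every library. The part of cell composition in the results that follow was not tested, and in bulk slices fewer cells of a type and less RNA per cell cannot be told apart.

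Mitochondrial RNA was a large part of every library. Of all counts on genes, 27.7, 18.3 and 14.5% fell on mt- genes in CTR replicates 1 to 3, a mean of 20.2% ± 6.765 (SD, n = 3). In VPA replicates 1 to 4 the values were 26.2, 23.9, 32.2 and 32.5%, a mean of 28.7% ± 4.31 (SD, n = 4). The group means were 8.54 percentage points apart, but CTR replicate 1 lay above VPA replicates 1 and 2, so the groups overlapped. Between libraries of the same slice culture number the VPA value was the higher in all 3 numbers, at 32.2 against 14.5% for number 71, 32.5 against 27.7% for 72 and 23.9 against 18.3% for 74. The difference was 12.3 points without CTR replicate 1 and 5.73 points without CTR replicate 3, and it lay between these values without any other library.

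The rRNAs made up most of the mitochondrial counts. They took 23.0, 13.1 and 11.0% of all counts in CTR replicates 1 to 3 and 19.7, 18.4, 28.3 and 26.7% in VPA replicates 1 to 4. The mRNAs took 3.88, 4.63 and 2.89% in the CTR libraries and 6.03, 5.23, 3.28 and 5.004% in the VPA libraries. The tRNAs stayed under 1% throughout, with 0.810, 0.516 and 0.611% in the CTR libraries and 0.486, 0.319, 0.605 and 0.795% in the VPA libraries. All 3 classes overlapped between the groups as a percent of all counts. Within the mitochondrial counts alone, however, the tRNA share was lower in every VPA library: it was 2.93, 2.83 and 4.199% in the CTR libraries and 1.86, 1.33, 1.88 and 2.45% in the VPA libraries. This share was looked at after the values of single genes were known. The shares of the rRNAs (71.8 to 83.0% in the CTR and 75.1 to 87.95% in the VPA libraries) and of the mRNAs (14.03 to 25.3% and 10.2 to 23.0%) overlapped.

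**Figure D1:**
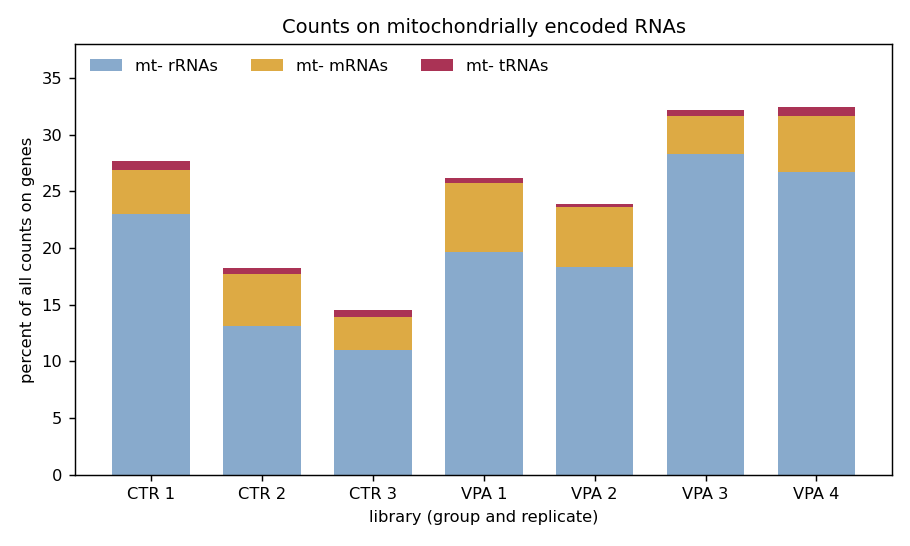
Percent of all counts on genes (y axis) that fell on mt- rRNAs, mRNAs and tRNAs, stacked, in each of the 3 CTR and 4 VPA libraries (x axis). The rRNAs fill most of each bar, the totals run from 14.5 to 27.7% in the CTR libraries and from 23.9 to 32.5% in the VPA libraries, and the tRNA layer at the top is under 1% everywhere.

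In edgeR's quasi-likelihood test with Benjamini-Hochberg adjustment over all 10876 genes, 0 of the 37 mt- genes had an adjusted p under 0.05, where 0.00919% of all genes tested passed. The lowest adjusted p among them was 0.280, for mt-Tc. At an unadjusted p under 0.05 there were 7 mt- genes lower with VPA, all of them tRNAs, and 4.62% of all genes tested were lower at this level. They were 5 without mt-Tf and mt-Tk. On the other side, 3 mt- genes were higher at an unadjusted p under 0.05, mt-Nd6, mt-Nd3 and mt-Rnr1, beside 3.65% of all genes tested. DESeq2, the tool that the study names for this step, called 7 mt- genes on the same counts at an adjusted p under 0.05. It called 6 tRNAs lower (mt-Tf, mt-Tv, mt-Tc, mt-Tr, mt-Ts2 and mt-Tl2), beside 1.86% of all genes with an adjusted p, or 5 without mt-Tf, and 1 mRNA higher (mt-Nd6), beside 1.35%. The mt- genes are cut from shared precursors, so they are not independent of each other.

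The direction differed between the classes of RNA. All 13 mRNAs and both rRNAs had a log2 fold change above 0, with medians of 0.44 and 0.67, while 19 of the 22 tRNAs were below 0 with a median of −0.72. Over all genes tested the median was −0.06, with 4982 genes above 0 and 5894 below. Among the tRNAs, all 14 on the + strand were below 0 (median −1.25), and of the 8 on the − strand 5 were below 0 (median −0.22). Of these, mt-Tf, mt-Tk and mt-Tt, all on the + strand, met the filter only in the CTR group, where they were high. Without them the median would be the value of mt-Td, −0.50, over all tRNAs and that of mt-Tg, −0.97, on the + strand. The strands are those of the annotation, since the use of strand in the counting is not given. Normalized CPM of 5 tRNAs lay lower in every VPA library than in any CTR library, as they did for 7.41% of all genes tested. They were mt-Tf, mt-Tv, mt-Tr, mt-Ts2 and mt-Tc. Of these, mt-Tf met the filter only in the CTR group and is not to be set beside that share. For mt-Nd6 and mt-Rnr1 every VPA library lay above every CTR library, as for 4.44% of all genes tested.

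**Figure D2:**
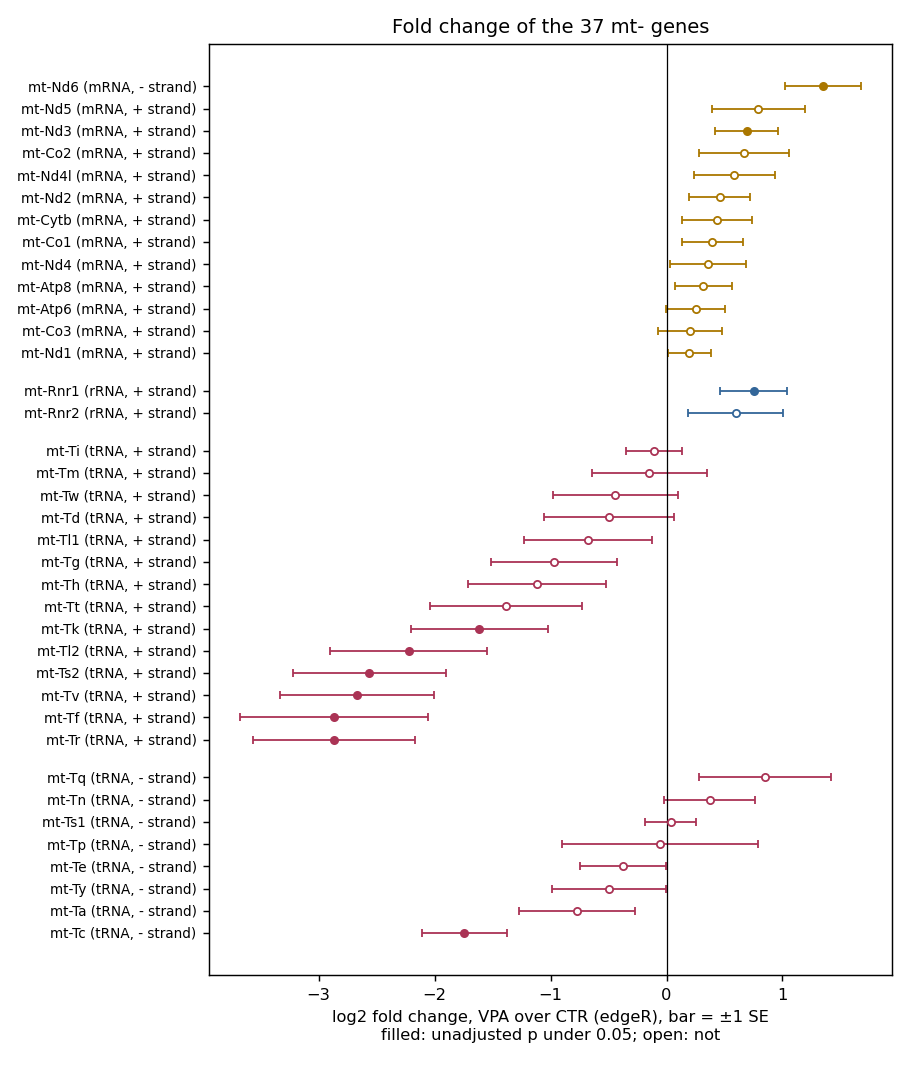
Log2 fold change of each of the 37 mt- genes, VPA over CTR, from edgeR (x axis), with bars of 1 SE, grouped as mRNAs, rRNAs, + strand tRNAs and − strand tRNAs (y axis). Filled points have an unadjusted p under 0.05, and no gene has an adjusted p under 0.05. Among them, mt-Tf and mt-Tk met the filter on low counts only in the CTR group. The mRNAs and rRNAs lie between 0.20 and 1.35, the + strand tRNAs between −2.87 and −0.11, and the − strand tRNAs between −1.74 and 0.85.

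Complex I, the NADH dehydrogenase at the entry of the respiratory chain, takes 7 of its subunits from the mitochondrial genome. The mRNA that stood furthest from its CTR level was mt-Nd6, at chrM:13552-14070. Its CPM was 1186, 784 and 797 in CTR replicates 1 to 3 and 3292, 1395, 1904 and 2811 in VPA replicates 1 to 4. Every VPA library was above every CTR library, with a ratio of the group means of 2.55. The log2 fold change was 1.35 ± 0.33 (SE) with an unadjusted p of 0.00390 and an adjusted p of 0.320 in edgeR, and DESeq2 gave an adjusted p of 0.00198. Between libraries of the same slice culture number the log2 ratio was 1.26 for number 71, 1.25 for 72 and 0.83 for 74, so that the direction was shared by all 3.

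The overlapping gene on the other strand, mt-Nd5, codes for one of the largest complex I subunits. Its CPM was 1681, 1049 and 990 in the CTR libraries and 2345, 1113, 1676 and 3464 in the VPA libraries. The groups overlapped, and the log2 fold change was 0.79 ± 0.40 (SE, edgeR adjusted p = 0.684). For each count on mt-Nd5 there were 0.705, 0.747 and 0.805 counts on mt-Nd6 in the CTR libraries and 1.40, 1.25, 1.14 and 0.811 in the VPA libraries. This ratio, looked at after the values of both genes were known, was higher in every VPA library, although VPA replicate 4 lay only just above CTR replicate 3. The counts on mt-Nd6 and this ratio also depend on the use of strand in the counting, which is not given.

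A smaller complex I subunit is encoded by mt-Nd3, at chrM:9459-9806. It had 322, 221 and 160 CPM in the CTR libraries and 471, 351, 282 and 409 CPM in the VPA libraries. CTR replicate 1 lay above VPA replicate 3, so the groups overlapped, and the log2 fold change was 0.69 ± 0.28 (SE), with an unadjusted p of 0.0377 and an adjusted p of 0.572 in edgeR. The 2 complex I mRNAs with the most counts, mt-Nd2 and mt-Nd4, code for subunits of the proton-pumping membrane arm. Mean CPM of mt-Nd2 was 8889 ± 2825 (SD, n = 3) without and 12218 ± 2548 (SD, n = 4) with VPA. For mt-Nd4 they were 10392 ± 3415 and 13289 ± 3983 CPM. Both overlapped between the groups, with log2 fold changes of 0.46 ± 0.26 and 0.35 ± 0.33 (SE). The other complex I mRNAs, mt-Nd1 and mt-Nd4l, which share the membrane arm, had log2 fold changes of 0.20 ± 0.19 and 0.59 ± 0.35 (SE) and overlapped as well.

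Complex III holds a single mitochondrially encoded subunit, cytochrome b. Its mRNA, mt-Cytb, had 2219, 2603 and 1440 CPM in the CTR libraries and 3674, 3414, 1880 and 2347 CPM in the VPA libraries. VPA replicates 1 and 2 were above all CTR libraries while VPA replicates 3 and 4 were within their range, and the log2 fold change was 0.44 ± 0.30 (SE, edgeR adjusted p = 0.824).

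The catalytic core of complex IV, cytochrome c oxidase, is made of 3 mitochondrially encoded subunits. For the copper-binding subunit encoded by mt-Co2 the CPM was 972, 1174 and 708 in the CTR libraries and 2036, 2186, 918 and 907 in the VPA libraries, so that VPA replicates 1 and 2 lay far above VPA replicates 3 and 4. The fitted log2 fold change was 0.67 ± 0.39 (SE). The largest subunit, mt-Co1, had a mean CPM of 3356 ± 982 (SD, n = 3) without and 4408 ± 874 (SD, n = 4) with VPA. For mt-Co3 the means were 3213 ± 1071 and 3696 ± 839 CPM, and both genes overlapped between the groups. The log2 fold change of mt-Co3, 0.20 ± 0.28 (SE), turned to −0.03 without CTR replicate 3.

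The mRNAs of ATP synthase (complex V) lie on 1 transcript with overlapping reading frames. For mt-Atp6, the subunit of the proton channel, the mean CPM was 1946 ± 487 (SD, n = 3) without and 2318 ± 569 (SD, n = 4) with VPA. Its partner mt-Atp8 had 99.1 ± 32.2 and 124 ± 14.6 CPM. Both overlapped, with log2 fold changes of 0.25 ± 0.26 and 0.32 ± 0.25 (SE). The median log2 fold change of the 13 mRNAs, 0.44, lay between 0.21 (without CTR replicate 3) and 0.62 (without CTR replicate 2) when single libraries were left out.

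**Figure D3:**
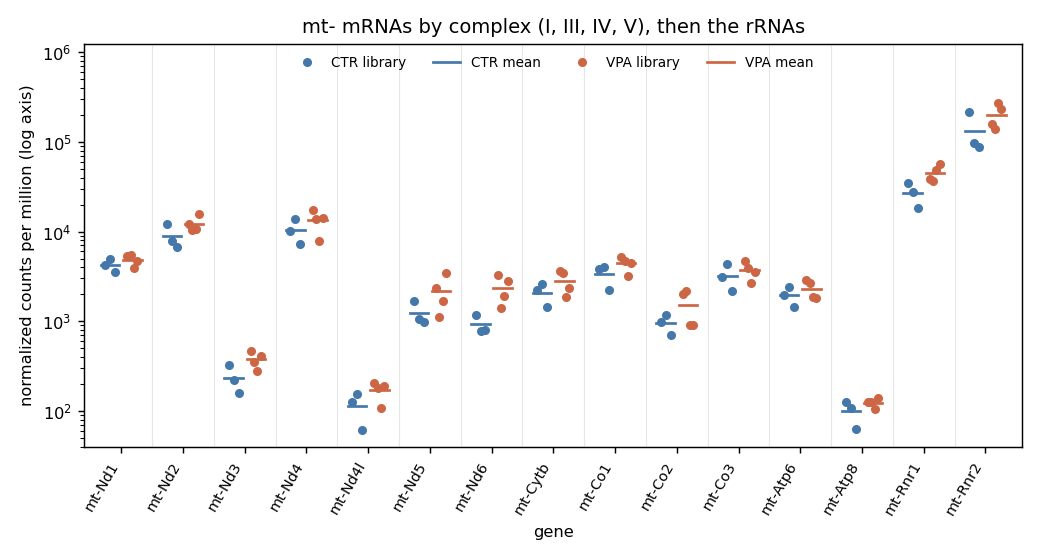
Normalized CPM (y axis, log scale) of the 13 mt- mRNAs and the 2 rRNAs (x axis) in each CTR library (blue, n = 3) and VPA library (orange, n = 4), with a line at each group mean. The mt-Nd6 points run from 784 to 1186 in the CTR and from 1395 to 3292 in the VPA libraries with no overlap, those of mt-Rnr1 do not overlap either, and the other genes do.

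The makeup of the mRNA pool by complex overlapped between the groups. Of the mt- mRNA counts, complex I took 69.3% ± 2.52 (SD, n = 3) in the CTR and 70.4% ± 4.34 (SD, n = 4) in the VPA libraries. Complex III took 5.50% ± 0.421 and 5.60% ± 1.14, complex IV 19.8% ± 1.79 and 19.1% ± 2.37, and complex V 5.42% ± 0.384 and 4.91% ± 0.934. The shares of all 4 complexes overlapped, and so did those of all 13 single mRNAs. The largest shares were those of mt-Nd4, 23.9 to 32.1% in the CTR and 21.1 to 29.0% in the VPA libraries, and of mt-Nd2, 17.95 to 28.8% and 20.2 to 28.9%. For mt-Nd6 the share was 2.83, 1.80 and 2.89% in the CTR libraries and 5.52, 2.80, 5.17 and 5.12% in the VPA libraries. VPA replicate 2 thus lay within the CTR range, while the other VPA libraries lay well above it. The smallest shares belonged to mt-Atp8 (0.230 to 0.301% in the CTR and 0.209 to 0.283% in the VPA libraries) and mt-Nd4l (0.220 to 0.356% and 0.296 to 0.360%). These are shares of counts and not of molecules per length.

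The rRNAs are the most abundant RNAs of the mitochondrion. The rRNA of the small ribosomal subunit, mt-Rnr1 at chrM:70-1024, had 34919, 27360 and 18116 CPM in the CTR libraries and 38202, 36650, 48394 and 57130 CPM in the VPA libraries. Every VPA library was above every CTR library, with a ratio of the group means of 1.68. In edgeR the log2 fold change was 0.75 ± 0.29 (SE), with an unadjusted p of 0.0316 and an adjusted p of 0.558, and the adjusted p in DESeq2 was 0.1499. Its neighbour mt-Rnr2 at chrM:1094-2675, the rRNA of the large subunit, had 213305, 96078 and 87430 CPM in the CTR and 156529, 138575, 270239 and 235475 CPM in the VPA libraries. CTR replicate 1 was above VPA replicates 1 and 2, and the log2 fold change was 0.60 ± 0.41 (SE, edgeR adjusted p = 0.823). For each count on mt-Rnr1 there were 6.11, 3.51 and 4.83 counts on mt-Rnr2 in the CTR libraries and 4.10, 3.78, 5.58 and 4.12 in the VPA libraries, with overlap.

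On a scale of CPM per kilobase of gene, the order of levels was headed by mt-Rnr2, with a CTR mean of 83610 and a VPA mean of 126552. It was followed by mt-Rnr1 with 28061 and 47219. The serine tRNA mt-Ts1 came next in the CTR libraries with 26592 (27309 in the VPA libraries), close to mt-Rnr1 within the spread of either. The highest mRNAs on this scale were mt-Nd2 (8564 and 11770) and mt-Nd4 (7541 and 9644), and the lowest was mt-Nd4l (382 and 575). Since a 3′ kit gives counts near runs of A and not along the whole gene, these levels per length are a rough order.

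Among the 37 genes the log2 fold changes farthest from 0 were those of tRNAs. The lowest levels relative to CTR were those of mt-Tr, the tRNA between mt-Nd3 and mt-Nd4l, and mt-Tf, the first gene before the rRNAs. CPM of mt-Tr was 111, 18.5 and 90.5 in the CTR libraries and 5.88, 4.61, 16.1 and 14.35 in the VPA libraries. Every VPA library lay below every CTR library, though VPA replicate 3 and CTR replicate 2 were close. Its log2 fold change was −2.87 ± 0.70 (SE), with an unadjusted p of 0.00390 and an adjusted p of 0.320 in edgeR and an adjusted p of 0.00161 in DESeq2. These levels rest on few reads, 9 to 20 counts in each VPA library and 94 to 281 in each CTR library.

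The phenylalanine tRNA, mt-Tf, had 74.9, 20.3 and 63.0 CPM in the CTR libraries and 1.96, 2.15, 11.2 and 14.35 CPM in the VPA libraries. VPA replicate 1 held 3 counts and no VPA library more than 19, while the CTR libraries held 103 to 190. Its log2 fold change was −2.87 ± 0.81 (SE). The valine tRNA between the rRNA genes, mt-Tv, was counted far more often. It had 1663, 927 and 1076 counts in the CTR libraries and 51, 93, 166 and 143 in the VPA libraries, which is 655, 183 and 590 CPM against 33.3, 28.6, 133 and 108 CPM. No VPA library reached the lowest CTR library, and the CTR mean was 6.28 times the VPA mean. The log2 fold change was −2.67 ± 0.67 (SE), with an unadjusted p of 0.00449 and an adjusted p of 0.328 in edgeR and an adjusted p of 0.0197 in DESeq2. Between libraries of the same slice culture number the log2 ratio of mt-Tv was −2.15 for number 71, −2.60 for 72 and −2.68 for 74. Both rRNA genes that flank mt-Tv, by contrast, had log2 fold changes above 0.

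Further along the + strand lie mt-Th, mt-Ts2 and mt-Tl2 in a row, the tRNAs of histidine, serine and leucine. CPM of mt-Ts2 was 62.3, 13.01 and 47.1 in the CTR libraries and 5.88, 2.77, 8.03 and 11.3 in the VPA libraries. The groups did not overlap, and the log2 fold change was −2.56 ± 0.66 (SE, edgeR adjusted p = 0.336, DESeq2 adjusted p = 0.00783), on 9 to 15 counts in each VPA library. For mt-Tl2 the CPM was 202, 38.4 and 152 in the CTR libraries and 13.7, 14.5, 57.0 and 28.7 in the VPA libraries. Here VPA replicate 3 lay above CTR replicate 2, and the log2 fold change was −2.22 ± 0.68 (SE, edgeR adjusted p = 0.447, DESeq2 adjusted p = 0.0190). The third of the row, mt-Th, had a mean CPM of 48.1 ± 26.9 (SD, n = 3) without and 22.4 ± 14.2 (SD, n = 4) with VPA, with overlap and an adjusted p of 0.709 in edgeR. The lysine tRNA mt-Tk, between mt-Co2 and mt-Atp8, had a log2 fold change of −1.61 ± 0.59 (SE). CPM of mt-Tk was 42.6, 15.4 and 28.5 in the CTR libraries and 5.22, 4.92, 10.4 and 17.4 in the VPA libraries, so VPA replicate 4 lay above CTR replicate 2.

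The lowest log2 fold change of a − strand tRNA was that of the cysteine tRNA. The gene mt-Tc lies in a row of 4 tRNAs with mt-Ta, mt-Tn and mt-Ty. Its CPM was 188, 295 and 241 in the CTR libraries and 81.0, 32.0, 78.7 and 98.9 in the VPA libraries. The groups did not overlap, with a CTR mean 3.32 times the VPA mean and 98 to 131 counts in each VPA library. The log2 fold change was −1.74 ± 0.37 (SE), with an unadjusted p of 0.00168 and an adjusted p of 0.280 in edgeR, and DESeq2 gave an adjusted p of 0.000215. When only genes with at least 10 counts in every library were kept, edgeR also called mt-Tc, at an adjusted p of 0.0314. Between libraries of the same slice culture number its log2 ratio was −1.61 for number 71, −0.92 for 72 and −3.21 for 74. Of the other genes in the row, the alanine tRNA mt-Ta and the tyrosine tRNA mt-Ty had log2 fold changes of −0.77 ± 0.50 and −0.50 ± 0.49 (SE), and the asparagine tRNA mt-Tn had 0.37 ± 0.39 (SE). All 3 overlapped between the groups.

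**Figure D4:**
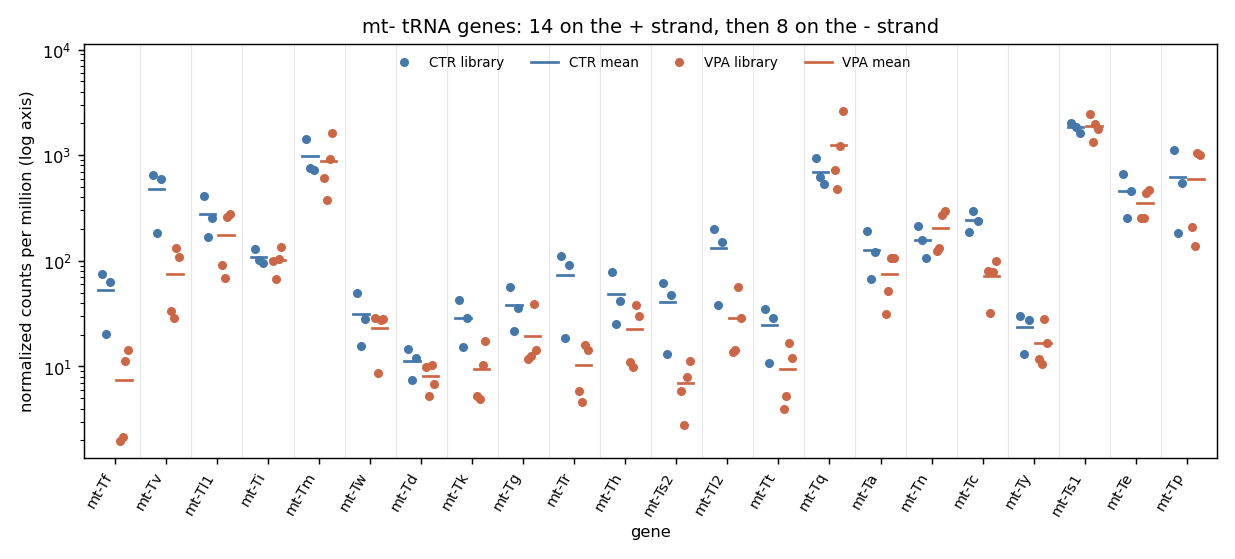
Normalized CPM (y axis, log scale) of the 22 mt- tRNA genes (x axis), the 14 of the + strand first and the 8 of the − strand after them, in each CTR library (blue, n = 3) and VPA library (orange, n = 4), with a line at each group mean. The points of mt-Tf, mt-Tv, mt-Tr, mt-Ts2 and mt-Tc do not overlap between the groups, with the VPA libraries lower.

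The 4 tRNAs with the most counts had log2 fold changes between −0.15 and 0.85. The serine tRNA mt-Ts1, whose gene ends inside mt-Co1 on the opposite strand, had 30437 counts over the 7 libraries. Its CPM was 2030, 1861 and 1613 in the CTR and 2454, 1331, 1983 and 1769 in the VPA libraries, with a log2 fold change of 0.04 ± 0.22 (SE) that turned negative when libraries were scaled to their totals alone (−0.03). The methionine tRNA mt-Tm, which both starts and extends mitochondrial proteins, had a log2 fold change of −0.15 ± 0.50 (SE). The proline tRNA mt-Tp had 1130, 184 and 547 CPM in the CTR and 209, 138, 1040 and 1007 CPM in the VPA libraries. For the glutamine tRNA mt-Tq the CPM was 947, 622 and 530 in the CTR and 718, 483, 1211 and 2627 in the VPA libraries, with a log2 fold change of 0.85 ± 0.57 (SE, edgeR adjusted p = 0.814). It rested on VPA replicate 4, without which the log2 fold change was 0.19. The remaining tRNAs were mt-Tl1, mt-Ti, mt-Tw, mt-Td, mt-Tg, mt-Tt and mt-Te, with log2 fold changes from −1.38 for mt-Tt to −0.11 for mt-Ti, all with overlap.

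Within the tRNA counts, the + strand genes took 38.4, 28.8 and 37.6% in the CTR libraries and 19.3, 20.1, 24.2 and 26.7% in the VPA libraries. Every VPA library was lower, a contrast that was looked at after the values of single genes were known. The use of strand in the counting is not given, so reads of the opposite strand may be among the counts of either set. Shares of mt-Tf, mt-Tv, mt-Tk, mt-Tr, mt-Ts2 and mt-Tc within the tRNA counts were lower in every VPA library, and that of mt-Tq was higher in every one. The share of mt-Tv was 7.48, 3.76 and 10.1% in the CTR libraries and 0.692, 0.940, 1.96 and 1.24% in the VPA libraries. For mt-Tq it was 10.8, 12.8 and 9.07% against 14.9, 15.9, 17.8 and 30.1%, and VPA replicate 4 was far above the other libraries. The shares of a sum are tied to each other, so that a lower share of some raises those of the rest.

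In length and base composition the tRNA genes shown above as sequences overlapped with the others. The 7 with an unadjusted p under 0.05 are 59 to 71 bases long with 22.1 to 39.1% G and C, beside 67 to 75 bases and 17.1 to 44.9% for the others. Of these 7, mt-Tf and mt-Tk met the filter on low counts only in the CTR group. The longest run of A, where the primer of the kit could anneal, is 8 bases in mt-Tr, 5 in mt-Ts2 and mt-Tl2, 4 in mt-Tf and mt-Tk, and 3 in mt-Tv and mt-Tc. It is 2 to 6 bases in the other tRNAs, and its part in the counts was not tested.

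Copies of the mitochondrial genome in the nuclear chromosomes share sequence with these genes. A comparison of all GENCODE M21 transcripts with the mt- transcripts found 11 annotated pseudogenes that match a mt- gene over at least 100 bases at 95% identity or more, and they match 9 of the 13 mRNAs. The tRNA genes are shorter than these 100 bases. The same search at 90% identity, with no set length, gave 0 matches for the rRNA and tRNA genes among the annotated transcripts. Its settings need a long exact stretch to start a match, so short or less alike copies of a tRNA gene could be missed. Copies outside the annotated transcripts were not searched. The 0 matches therefore do not show that the tRNA counts are free of nuclear copies. The counts on the copies came to 1.01, 1.27 and 0.739% of all counts in the CTR libraries and 1.51, 1.43, 0.825 and 1.05% in the VPA libraries. The copies had a median log2 fold change of 0.22, and 0 of 11 had an adjusted p under 0.05 in edgeR, where 1, the mt-Nd3 copy Gm28438, was higher at an unadjusted p under 0.05, beside 3.65% of all genes tested. DESeq2 called 0 of 11, beside 1.35% of all genes higher and 1.86% lower.

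Most of the copies lie in a block on chromosome 1, on the − strand of chr1:24611535-24616197, in the same order as in the mitochondrial genome. There Gm28437 is identical to mt-Co3 over 783 bases and held 99.5 to 99.8% as many counts as mt-Co3 in each library. The copies of mt-Atp6 (Gm10925, 678 identical bases), mt-Co2 (Gm28661, 681 identical bases) and mt-Nd4l (Gm10222, 294 identical bases) held 99.7 to 99.97%, 98.3 to 99.3% and 99.7 to 100.3% as many counts as their mt- genes. These 4 copies lack only the last bases of their genes, and the counts of gene and copy were almost the same in every library. The copy of mt-Nd4, Gm28439, matches only its first 876 of 1378 bases, which leaves out the 3′ end, and it held 5.11 to 12.3% as many counts as mt-Nd4. Between Gm10222 and Gm28438, where mt-Tr would lie in the order of the block, is a stretch that was not searched.

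A pair of copies in this block differs from the mitochondrial gene by 1 base each within the stretch that aligns. The sequences around those bases are printed because the counts on these pairs differ in how close they are. Positions are counted from 1 at the 5′ end of the mt- gene. Gm28438 matches mt-Nd3 over 345 bases with the substitution T3C, and it held 98.0 to 100.2% as many counts as mt-Nd3. Gm29216 matches the last 483 bases of mt-Co1 with the substitution A1066T, and it held 50.8 to 68.5% as many counts as mt-Co1. This match starts at base 10 of Gm29216, and the bases before it are not part of it. The windows lie at chrM:9459-9491 and chrM:6390-6423 on the + strand and at chr1:24613087-24613119 and chr1:24616155-24616188 on the − strand, and the capital marks the substituted base.
mt-Nd3: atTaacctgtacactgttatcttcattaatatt
Gm28438: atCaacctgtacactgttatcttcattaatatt
mt-Co1: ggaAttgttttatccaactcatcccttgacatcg
Gm29216: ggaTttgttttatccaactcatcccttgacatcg

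The other copies are less alike. On chromosome 2, Gm13340 matches mt-Co1 at 97.6%, Gm13341 matches mt-Co2 at 95.9% and Gm13339 matches mt-Nd2 at 96.7% identity, and they held 7.43 to 10.9%, 4.501 to 15.8% and 0.304 to 0.512% as many counts as their mt- genes. On chromosome 13, Gm4076 matches part of mt-Nd5 at 95.2% identity and held 2.955 to 13.8% as many counts. Whether a read that fits a gene and its copy equally well was counted at both is not given in the sources used here, and the counts of these mRNAs and their copies cannot be told apart where the sequences are the same. The nearest annotated copy of mt-Nd6, Gm11408, matches all 519 bases at 93.6% identity, which is under the limit, and was named after this was seen. It held 6 to 19 counts in a library, against 1453 to 5042 on mt-Nd6.

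**Figure D5:**
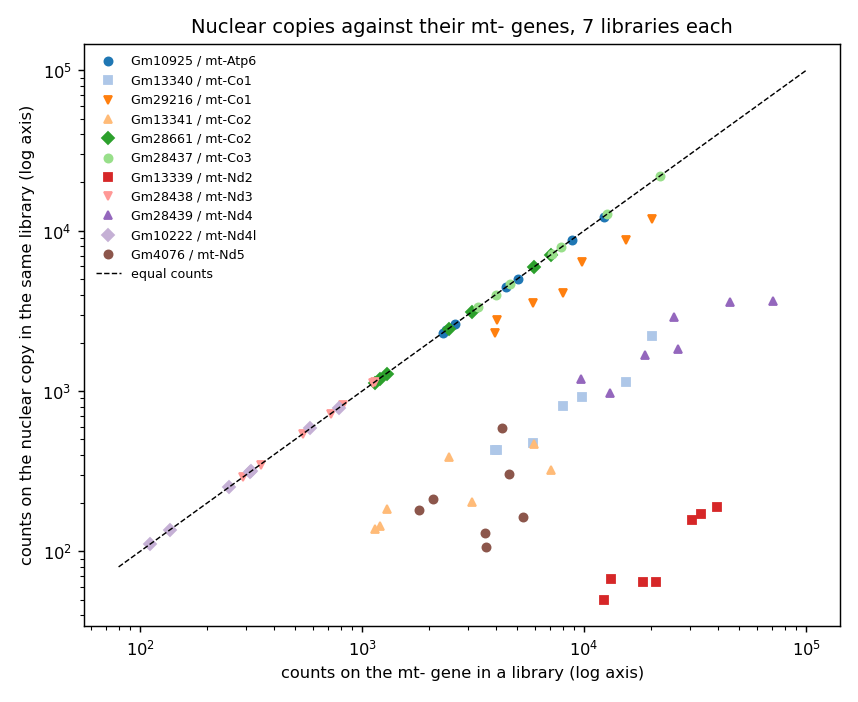
Counts on each of the 11 nuclear copies (y axis, log scale) against counts on its mt- gene (x axis, log scale), 1 point per library, with a dashed line at equal counts. The copies of mt-Atp6, mt-Co2, mt-Co3, mt-Nd3 and mt-Nd4l on chromosome 1 lie on the line, that of mt-Co1 there lies below it at 50.8 to 68.5%, and the rest lie far below it.

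Nuclear genes that serve the mitochondrial genome were taken from 7 lists written from general knowledge. No list held a gene with an adjusted p under 0.05 in edgeR, where 0.00919% of all genes tested passed. Besides the 2 genes with the most counts in each list, those with an unadjusted p under 0.05 are named below, which were picked after their values were seen. Of 11 genes of mtDNA maintenance tested, 9 had a log2 fold change below 0, with a median of −0.50, but no more than 5 of the 11 met the filter within each group. Tfam, which packages mtDNA and activates its transcription, had a mean CPM of 32.6 ± 8.04 (SD, n = 3) without and 30.9 ± 6.96 (SD, n = 4) with VPA, and a log2 fold change of −0.08 ± 0.29 (SE). Mpv17, an inner-membrane protein needed to keep mtDNA, had 0.31 ± 0.21 (SE).

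In the same list Top1mt, the mitochondrial topoisomerase that relieves supercoils in mtDNA, was at 9.85, 10.6 and 14.3 CPM in the CTR libraries and at 0 in every VPA library. With 3 counts over the 4 VPA libraries as the limit that a count of 0 allows, which covers counting error only, its level was at least 28.4-fold lower with VPA. Single libraries also held 0 counts of genes that were high in the others. Mrpl34 was at 0 in VPA replicate 4 and at 106 CPM or more elsewhere. Ptcd1 was at 0 in CTR replicate 1 and VPA replicate 1 and at 52.1 CPM or more elsewhere. The gene passed the filter on low counts only through the CTR libraries, where it was high, and its values are given as a description with no test. The bound leaves the median of the list at −0.50. The catalytic subunit of the mtDNA polymerase, Polg, had 26.4, 29.4 and 22.5 CPM in the CTR and 42.4, 42.1, 36.9 and 32.5 CPM in the VPA libraries. Here each VPA library was the higher, with a log2 fold change of 0.56 ± 0.24 (SE, unadjusted p = 0.0488 and adjusted p = 0.599 in edgeR, DESeq2 adjusted p = 0.215).

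Few genes of mitochondrial transcription were counted highly enough to be tested, 3 of 8, with a median log2 fold change of 0.09. Tfb2m, which opens the promoter for the mitochondrial RNA polymerase, had a mean CPM of 19.2 ± 2.54 (SD, n = 3) without and 29.0 ± 14.1 (SD, n = 4) with VPA, with overlap. Mterf4, which takes part in assembling the mitochondrial ribosome, had a log2 fold change of 0.09 ± 1.01 (SE). Among the genes of mitochondrial RNA processing and stability, 21 of 26 were tested, 13 of them below 0 (median −0.20). None had an unadjusted p under 0.05 in edgeR, beside 4.62% of all genes tested that were lower and 3.65% higher. DESeq2 called 0 at an adjusted p under 0.05, beside 1.86% lower and 1.35% higher. For 21 genes, 0 is close to these shares. Rexo2, a nuclease that clears very short RNAs, had the most counts of this list and a log2 fold change of −0.34 ± 0.18 (SE, edgeR adjusted p = 0.705). Ptcd1, an RNA-binding protein of the mitochondrial matrix, had 0.10 ± 1.49 (SE), with 0 counts in a library of either group.

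Mitochondrial translation factors had a median of 0.17 over 11 genes tested. The initiation factor gene Mtif3 and the inner-membrane insertase gene Oxa1l had 0.42 ± 0.27 and 0.17 ± 0.28 (SE). The elongation factor gene Gfm1 had 17.7, 17.7 and 15.9 CPM in the CTR libraries and 66.6, 20.3, 36.9 and 25.7 CPM in the VPA libraries, all of them above the CTR range. Its log2 fold change was 1.12 ± 0.45 (SE, unadjusted p = 0.0378 and adjusted p = 0.573 in edgeR, DESeq2 adjusted p = 0.191).

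The regulators of mitochondrial biogenesis had a median of −0.19 over 7 genes tested. Ppargc1a codes for the coactivator PGC-1α, a driver of mitochondrial and gluconeogenic genes in the liver. It was at 4.33, 3.35 and 10.4 CPM in the CTR libraries and at 17.0, 18.8, 22.5 and 23.4 CPM in the VPA libraries. The groups did not overlap, and the log2 fold change was 1.77 ± 0.55 (SE). The gene met the filter only through the VPA libraries, where it was high, so this is a description with no test. It rests on 11 to 19 counts in each CTR library. The transcription factor genes with the most counts in this list, Yy1 and Esrra, had log2 fold changes of 0.01 ± 0.16 and −0.90 ± 1.01 (SE).

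Mitochondrial ribosomal proteins, the partners of the rRNAs, had a median log2 fold change of −0.16 over 73 genes tested, with 49 below 0. At an unadjusted p under 0.05 in edgeR 3 were lower, Mrps25 (−0.72 ± 0.27), Mrpl45 (−0.73 ± 0.29) and Mrpl19 (−1.21 ± 0.49, log2 with SE). These 3 of 73 are no larger a part than the 4.62% of all genes tested that were lower at this level. DESeq2 called 0 of 73, beside 1.86% of all genes lower and 1.35% higher. Levels of Mrpl19 were 38.2, 37.5 and 31.8 CPM in the CTR and 7.18, 8.61, 20.9 and 25.7 CPM in the VPA libraries. Of the 73 genes, 4 were lower and 1 higher without overlap between the groups, beside 7.41% and 4.44% of all genes tested, so the list did not stand above them. The 2 with the most counts, Mrpl34 and Mrpl52, had −0.54 ± 1.00 and 0.09 ± 0.18.

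Nuclear-encoded respiratory subunits, the partners of the proteins that the mt- mRNAs code for, had a median log2 fold change of 0.19 over 74 genes tested, with 49 above 0. At an unadjusted p under 0.05 in edgeR 5 were higher, Ndufb5 and Ndufb11 of complex I, Uqcrfs1 of complex III, and Cox5b and Cox6a1 of complex IV. Of all genes tested, 3.65% were higher at this level. DESeq2 called 1 of the 74, Cox6a1 (adjusted p = 0.00452, edgeR adjusted p = 0.393), beside 1.35% of all genes, so its count was no more than the share over all genes. Its CPM was 271, 290 and 284 in the CTR libraries and 394, 442, 385 and 344 in the VPA libraries, which did not overlap, and the log2 fold change was 0.48 ± 0.13 (SE). For Uqcrfs1, the iron-sulfur subunit, the log2 fold change was 0.92 ± 0.30 (SE). The 2 of this list with the most counts, Cox4i1 and Uqcrh, had 0.05 ± 0.27 and 0.23 ± 0.15 (SE). The 13 mt- mRNAs, with their median of 0.44, were on the same side of 0 as most of these nuclear partners, and no test of the difference between the lists was made.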

How the data were processed

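The authors made 3′ end libraries (QuantSeq, FWD) from total RNA, mapped the reads to GRCm38 (mm10) with STAR, used StringTie, and deposited the raw counts for each Ensembl gene in a column per library. The counting program, its use of strand and of multi-mapping reads are not given in the sources used here. Symbols, coordinates and sequences came from GENCODE M21 (GRCm38). The members and the gene lists were chosen with earlier results of these data known.

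The counts were tested with edgeR 4.0.16 in R 4.3.3 (TMM, filterByExpr, robust quasi-likelihood test, condition only) over 10876 genes in 3 CTR and 4 VPA libraries, adjusted by Benjamini-Hochberg with 0.05 as the limit. CPM are counts scaled to the TMM-normalized library size. DESeq2 1.42.0 and limma 3.58.1 served as alternatives. Percents, shares and ratios were given without a test. Copies were searched with BLAST+ 2.17.0. All 13 mRNAs, both rRNAs, each tRNA and copy with at least 10 counts, and the 2 list members with the most counts were to be named. On data simulated for this comparison with the estimated dispersion, edgeR tested 172 of 200 changed genes, recovered 60 and called 2 unchanged genes, and with 0.25 times that dispersion it recovered 133 of 176 and called 9. The changed genes tested had a median absolute log2 fold change of 1.96 and 2.04 in these runs. This is larger than that of any mt- mRNA or rRNA, so the recovery does not speak for changes of their size. The libraries held 1400887 to 4773750 counts, which limits the precision of the low tRNAs.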

Additional observations from a re-analysis of the deposited data

Results flagged for a closer look

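Of 57 values tested for a library far from the others among the 4 VPA libraries, 4 stood out, where chance alone flags about 1 in 20 groups (a share of 0.05). VPA replicate 2 had 8.61 CPM of the tryptophan tRNA mt-Tw, while the other VPA libraries had 27.3 to 28.7 CPM. In VPA replicate 3 the glycine tRNA mt-Tg was at 39.3 CPM, against 11.8 to 14.3 CPM in the others. The share of mt-Nd6 in the mt- mRNA counts was 2.80% in VPA replicate 2 and 5.12 to 5.52% in the others. VPA replicate 2 was also the deepest VPA library, with 3102450 counts on genes against 1400887 to 1515954. The part of depth in the values of this library was not tested. Groups of 3 libraries were not examined in this way.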

How the results depend on the processing

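The number of mt- genes with an adjusted p under 0.05 in edgeR, 0, was also 0 with RLE, upper-quartile and total-count scaling, with scaling without mt- genes and their copies, with no filter, with limma-voom, without robust dispersion, with the copies' counts added and without any single library. It was 1 (mt-Tc) when genes had at least 10 counts in every library, which kept 31 of the 37. It was 7 with DESeq2 and 6 with DESeq2 on every gene with a count, an alternative chosen after seeing the data, and 10 genes had an unadjusted p under 0.05. The cause was not tested. With single libraries left out, 6 to 10 mt- genes were lower and 1 to 5 higher at an unadjusted p under 0.05, beside 7 and 3 with all libraries. It was 1 higher without CTR replicate 2, CTR replicate 3 or VPA replicate 4, and 5 without CTR replicate 1. The percent of counts on mt- genes was 8.54 points higher with VPA and stayed between 5.73 and 12.3 points with single libraries left out. Counting the mRNAs alone gave 1.08 points by construction of the smaller sum.

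Correlations of same-numbered libraries' deviations were 0.107, 0.0256 and 0.0546 for slice cultures 71, 72 and 74, and −0.0539, 0.0546 and 0.107 for replicates 1 to 3, so the numbers were not taken as pairs. With slice culture or replicate number as a replicate block, 0 mt- genes were called either way, 8 and 7 were lower and 6 and 6 higher at an unadjusted p under 0.05, the median log2 fold change of the mRNAs was 0.36 and 0.40, and the percent on mt- genes was higher with VPA by a mean of 9.38 points within slice cultures and 7.28 points within replicate numbers (−1.48 to 17.7 points over 3 pairs, chosen after seeing the data). Under the replicate number block mt-Tq was at 0.12 in place of 0.85. Under the slice culture block mt-Ts1 changed to −0.13 and mt-Tp to 0.12.

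Of 734 log2 fold changes of single genes under alternatives, 16 changed direction, none of a gene with an unadjusted p under 0.05. With single libraries left out, mt-Ti ran from −0.28 to 0.052, mt-Tm from −0.64 to 0.23, mt-Tw from −0.77 to 0.068, mt-Ts1 from −0.11 to 0.18, mt-Tp from −0.50 to 0.70 and mt-Co3 from −0.035 to 0.47. The serine tRNA mt-Ts1 was at −0.030 with total-count scaling and −0.070 with no filter. No other scaling of the libraries turned a mt- gene, and none moved the median of all genes by over 0.1.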
